A study of Mus musculus with 6 samples.

Results

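The genes described here are 9 mouse genes of iron storage, uptake and export together with the siderophore-binding lipocalin Lcn2, out of 31384 genes in the count table. They are Fth1, Ftl1, Tfrc, Hmox1, Slc40a1, Ireb2, Aco1, Cp and Lcn2, taken by symbol, and all 9 passed the filter on low counts. Fth1 and Lcn2 were selected on their measured fold changes in these same libraries, so their values are given as a description with no test. The other 7 were not picked for their change, though earlier results of these data were known when the genes were chosen. They were tested with all 16121 genes that passed the filter.

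The cells were a mouse spermatogonial stem cell line, the stem cells of the male germline, grown on mouse embryonic fibroblasts whose division had been stopped with mitomycin C. In the LOVA group 5 uM lovastatin, a statin that blocks the rate-limiting enzyme of cholesterol synthesis, stood in place of GDNF (glial cell line-derived neurotrophic factor, the growth factor that maintains these stem cells). The NTC group received neither, and the PTC group received 10 ng/mL GDNF; all 3 groups had EGF and FGF2 at 10 ng/mL each and LIF, and were collected on day 18. Each group had 2 RNA libraries, called A and B after the columns of the table, and nothing in the labels says whether they came from separate cultures, so p-values measure the spread between these libraries, which may be technical. Being cultures of 1 line on feeders, they hold RNA of both, and in such bulk samples fewer cells of a type cannot be told apart from less RNA per cell.

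Cells take up iron as transferrin-bound iron through the transferrin receptor Tfrc, store it inside shells of ferritin heavy (Fth1) and light (Ftl1) chains, and release it through ferroportin, the product of Slc40a1. Heme oxygenase 1 (Hmox1) frees iron from heme, and ceruloplasmin (Cp), a copper ferroxidase, oxidises iron as it leaves the cell. The iron regulatory proteins made by Aco1 and Ireb2 bind RNA hairpins called iron-responsive elements when iron is scarce. Bound near the start of ferritin mRNA they block its translation, and bound in the tail of Tfrc mRNA they protect it from decay. Lcn2 binds the bacterial iron carriers called siderophores and is an acute-phase gene of the inflammatory response. Ferritin is thus controlled largely at translation, which RNA counts do not measure.

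Of the 9 genes, 4 had a match to the hairpin in their principal transcript, and the sites are shown because iron regulatory proteins bind such hairpins.
Fth1: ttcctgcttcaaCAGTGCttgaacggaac
Ftl1: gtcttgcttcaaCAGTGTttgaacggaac
Slc40a1: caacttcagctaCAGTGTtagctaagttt
Tfrc, site a: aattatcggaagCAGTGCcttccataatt
Tfrc, site b: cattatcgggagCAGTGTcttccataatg
Tfrc, site c: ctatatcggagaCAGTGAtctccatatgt
Tfrc, site d: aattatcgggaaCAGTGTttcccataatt
Each is 29 bases of the sense strand, with the loop in capitals. The search asked for the loop CAGTGN on the sense strand only, flanked by 5 paired bases on each side (G-T pairs allowed) with an unpaired C before the stem. The sequences and positions are those of the GENCODE M21 transcripts on GRCm38.

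The Fth1 site lies in the 5′ UTR at chr19:9982732-9982760 (plus strand). The Ftl1 site lies in the 5′ UTR at chr7:45459779-45459807 (minus strand), and 26 of its 29 bases are those of the Fth1 site. The Slc40a1 site is in the 5′ UTR at chr1:45925465-45925493 (minus strand) and shares 13 of 29 bases with each ferritin site. The 4 Tfrc sites that this search found lie in the 3′ UTR on the plus strand at chr16:32631219-32631247, chr16:32631598-32631626, chr16:32631663-32631691 and chr16:32631710-32631738, lettered here in that order. An element with another loop or stem would have been missed. Of 21901 protein-coding transcripts searched, 1 per gene, 0.0913% had such a hairpin in the 5′ UTR and 0.479% in the 3′ UTR, and Tfrc was the 1 transcript with 3 or more in the 3′ UTR. Hmox1, Ireb2, Aco1, Cp and Lcn2 had no match, which says only that these letters were not in those transcripts.

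Total counts ranged from 12454671 to 22668087 per library, so that 3 counts, the limit that a count of 0 allows, were worth between 0.128 and 0.258 CPM (counts scaled to library size, here after TMM normalization). In what follows the values of a group are those of its libraries A and B in that order. Pan-germ-cell genes, detected in every library, took 0.332% and 0.172% of counts in LOVA, 0.281% and 0.182% in NTC, and 0.504% and 0.508% in PTC. Feeder fibroblast markers, of which 0 of 20 were at 0, took 1.70% and 3.16% of counts in LOVA, 1.91% and 3.16% in NTC, and 0.178% and 0.690% in PTC. Macrophage markers (0 of 16 at 0) took 0.0474% and 0.0571% in LOVA, 0.219% and 0.274% in NTC, and 0.0335% and 0.0286% in PTC. Feeder markers thus took a larger share of counts in LOVA and NTC than in PTC, germ cell genes a smaller one, and macrophage markers took their largest share in NTC. Markers of neutrophils, which store Lcn2, took 2.63e-04% and 3.05e-04% in LOVA, 0.00111% and 0.00131% in NTC, and 1.47e-04% and 2.74e-04% in PTC. Of their NTC counts Mmp8 held 285, Csf3r 34, Mpo 29, S100a8 6 and Elane 1, and the others held 0. Lcn2 itself had 141 and 224 counts in NTC, and the part of neutrophils in them was not tested.

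**Figure D1:**
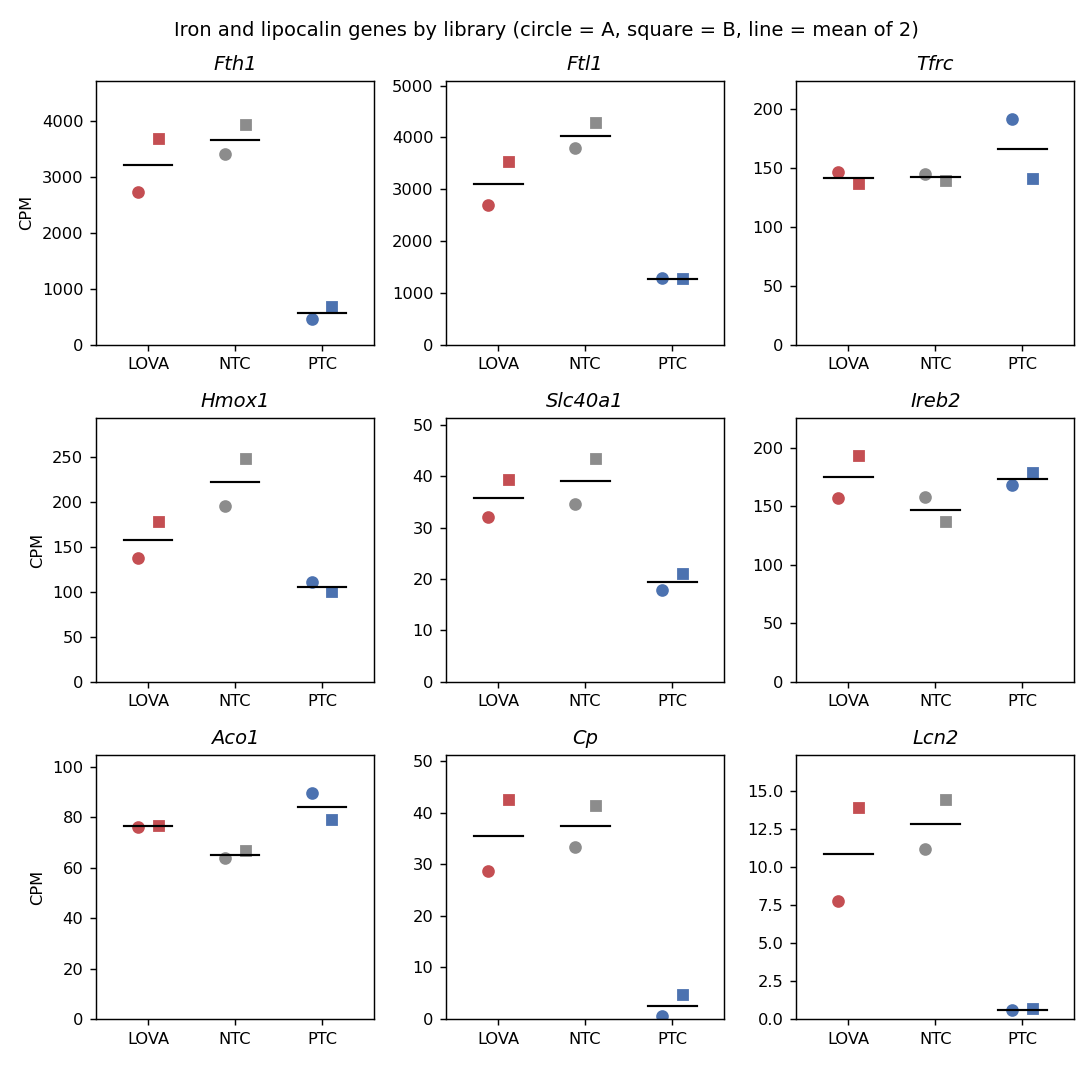
Normalised counts (CPM after TMM scaling, linear axis from 0) of the 9 genes in each of the 6 libraries; circles are A libraries, squares B libraries and lines the mean of 2. Fth1, Ftl1, Hmox1, Slc40a1, Cp and Lcn2 lie above PTC in each library of LOVA and of NTC, while Tfrc, Ireb2 and Aco1 lie close to each other in the 3 groups.

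Ferritin was the most abundant of these transcripts in every group, and the heavy chain stood far apart between cultures with and without GDNF. Fth1 (ENSMUSG00000024661, chromosome 19 from 9980598 to 9985098) had 2731 and 3682 CPM in LOVA, 3399 and 3922 CPM in NTC, and 451 and 681 CPM in PTC. Both LOVA and both NTC libraries lay above both PTC libraries, and LOVA and NTC overlapped each other. The fitted log2 fold change of Fth1 was 2.69 (SE 0.26) in NTC minus PTC and 2.50 (SE 0.26) in LOVA minus PTC, a 6.47-fold and a 5.67-fold difference. Between libraries of the same letter it was 2.91 for A and 2.53 for B in NTC minus PTC. By raw counts Fth1 ranked 7 and 9 among all genes in LOVA, again 7 and 9 in NTC, and 264 and 136 in PTC.

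The light chain rose as well, by less. Ftl1 (ENSMUSG00000050708, chromosome 7 from 45457944 to 45459884) had 2687 and 3521 CPM in LOVA, 3795 and 4274 CPM in NTC, and 1280 and 1263 CPM in PTC. The 2 PTC libraries nearly coincided, all other libraries were at least as high as LOVA A, and both NTC libraries lay above both LOVA libraries. Its log2 fold change was 1.67 (SE 0.18, adjusted p = 0.00835 by edgeR's quasi-likelihood test) in NTC minus PTC and 1.29 (SE 0.18, adjusted p = 0.0167) in LOVA minus PTC. In LOVA minus NTC it was -0.38 (SE 0.18, adjusted p = 1). Both ferritin genes have near-identical processed copies in the mouse genome, and how the counting assigned reads shared with them is not given in the sources used here.

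The make-up of the ferritin transcripts differed with it. Per transcript length, the ratio of Ftl1 to Fth1 was 0.944 and 0.918 in LOVA, 1.07 and 1.05 in NTC, and 2.72 and 1.78 in PTC. The heavy and light chain mRNAs were thus near parity without GDNF, while light chain mRNA was in excess in both libraries with GDNF. A ratio within a library does not depend on how libraries are scaled, but it does depend on the transcript taken as the gene's length. With the union of all exons in place of the principal transcript, the ratio averaged 2.51 in LOVA, 2.86 in NTC and 6.08 in PTC, so the order of the groups was the same and parity was not. With 2 libraries against 2 an exact two-sided permutation test cannot reach the 0.05 threshold, and none was made.

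**Figure D2:**
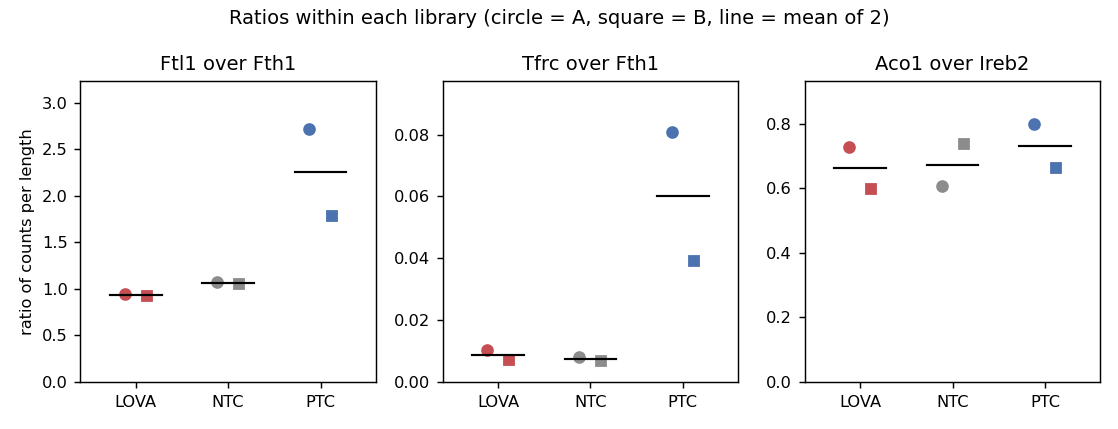
Ratios of Ftl1 to Fth1, Tfrc to Fth1 and Aco1 to Ireb2, as ratios of counts per principal transcript length within each library (linear axes from 0); circles are A libraries, squares B libraries and lines the mean of 2. Ftl1 over Fth1 lies between 0.918 and 1.07 in LOVA and NTC and at 2.72 and 1.78 in PTC, whereas Aco1 over Ireb2 overlaps between all 3 groups.

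The uptake receptor did not follow ferritin. Tfrc (ENSMUSG00000022797, chromosome 16 from 32608920 to 32632794) had 147 and 137 CPM in LOVA, 145 and 140 CPM in NTC, and 192 and 140 CPM in PTC. LOVA and NTC libraries lay within the same narrow range, PTC A stood above all others, and PTC B lay among them. Its log2 fold change was -0.23 (SE 0.19, 95% interval -0.68 to 0.23, adjusted p = 0.384) in NTC minus PTC and -0.23 (SE 0.19, 95% interval -0.69 to 0.23, adjusted p = 0.378) in LOVA minus PTC. In LOVA minus NTC the estimate was -0.00 with a 95% interval from -0.46 to 0.45 (adjusted p = 1). Without PTC A the log2 fold changes against PTC were 0.02 for NTC and 0.01 for LOVA. The ratio of Tfrc to Fth1 per length averaged 0.00864 ± 0.00225 in LOVA, 0.00743 ± 9.51e-04 in NTC and 0.0601 ± 0.0295 in PTC (SD, n = 2 each).

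The transcripts of the iron regulatory proteins also stayed within a narrow range. Ireb2 (ENSMUSG00000032293, chromosome 9 from 54863789 to 54912530), which makes iron regulatory protein 2, had 157 and 193 CPM in LOVA, 158 and 136 CPM in NTC, and 169 and 179 CPM in PTC. Both NTC libraries lay under both PTC libraries, and LOVA overlapped each of these groups. The log2 fold change of Ireb2 was -0.24 (SE 0.18, adjusted p = 0.314) in NTC minus PTC and 0.01 (SE 0.18, adjusted p = 0.961) in LOVA minus PTC. Aco1 (ENSMUSG00000028405, chromosome 4 from 40143081 to 40198338), whose product is a cytosolic aconitase that turns into iron regulatory protein 1 when it loses its iron-sulfur cluster, had 76.2 and 76.6 CPM in LOVA, 63.7 and 66.7 CPM in NTC, and 89.7 and 78.8 CPM in PTC. The 3 groups of Aco1 did not overlap, with NTC the lowest and PTC the highest, but no contrast passed the test. The log2 fold change of Aco1 was -0.37 (SE 0.16, 95% interval -0.76 to 0.02, adjusted p = 0.118) in NTC minus PTC and 0.23 (SE 0.16, adjusted p = 1) in LOVA minus NTC. The ratio of Aco1 to Ireb2 per length averaged 0.663 ± 0.0935 in LOVA, 0.672 ± 0.0908 in NTC and 0.732 ± 0.0971 in PTC (SD, n = 2 each).

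Hmox1, the enzyme that opens the heme ring and frees its iron, rose in NTC. Hmox1 (ENSMUSG00000005413, chromosome 8 from 75093621 to 75100589) had 138 and 178 CPM in LOVA, 196 and 248 CPM in NTC, and 111 and 99.6 CPM in PTC. The groups did not overlap, NTC lay highest and LOVA between it and PTC. The log2 fold change was 1.08 (SE 0.20, adjusted p = 0.0138) in NTC minus PTC. In LOVA minus PTC it was 0.59 (SE 0.20, 95% interval 0.11 to 1.07, adjusted p = 0.0652), which missed the threshold. It was 0.76 without LOVA A. With libraries scaled to the germ cell genes it was 1.67 and passed (adjusted p = 0.048). That scaling moved the median of all genes to 1.03, and relative to this median Hmox1 lay at 0.64, which was not tested. With the column letter as a block it was 0.57 and passed (adjusted p = 0.0169). In LOVA minus NTC it was -0.49 (SE 0.20, 95% interval -0.97 to -0.01, unadjusted p = 0.0465, adjusted p = 1), and it was -0.51 for the letter A and -0.48 for B. The macrophage marker share was lower in LOVA than in NTC in the same libraries, and its part in these values was not tested.

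Iron export genes rose together with ferritin. Slc40a1 (ENSMUSG00000025993, chromosome 1 from 45908068 to 45926523), the exporter ferroportin, had 32.0 and 39.3 CPM in LOVA, 34.6 and 43.3 CPM in NTC, and 17.8 and 20.9 CPM in PTC. LOVA and NTC overlapped and both lay above PTC. Slc40a1 rose by 1.01 (SE 0.23, adjusted p = 0.0200) in NTC minus PTC and by 0.88 (SE 0.23, adjusted p = 0.0311) in LOVA minus PTC on the log2 scale. The LOVA minus PTC call was lost when any of LOVA B, NTC A, NTC B, PTC A or PTC B was left out, with adjusted p between 0.0533 and 0.175, and also when only the LOVA and PTC libraries were fitted (adjusted p = 0.0505).

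Cp (ENSMUSG00000003617, chromosome 3 from 19957054 to 20009145), the ferroxidase ceruloplasmin, had 28.8 and 42.4 CPM in LOVA, 33.3 and 41.4 CPM in NTC, and 0.502 and 4.56 CPM in PTC. The PTC libraries held 8 and 107 counts, so as a ratio they differed more from each other than the libraries of any other group. Cp rose by 3.82 (SE 0.80, adjusted p = 0.0191) in NTC minus PTC and by 3.75 (SE 0.80, adjusted p = 0.0237) in LOVA minus PTC. Between libraries of the same letter the NTC minus PTC value was 6.05 for A and 3.18 for B. The NTC minus PTC call was lost without LOVA A (adjusted p = 0.0781), LOVA B (0.0785), NTC A (0.0506) or NTC B (0.117), and with only those 2 groups fitted (0.0645). The LOVA minus PTC call was lost without LOVA A (0.0831), LOVA B (0.188) or NTC B (0.0524). Cp overlaps Hps3 on the opposite strand, and whether the counting used strand is not given in the sources used here.

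Lcn2 was scarce with GDNF and present without it. Lcn2 (ENSMUSG00000026822, chromosome 2 from 32384633 to 32388252) had 7.76 and 13.9 CPM in LOVA, 11.2 and 14.4 CPM in NTC, and 0.564 and 0.639 CPM in PTC, where 9 and 15 reads were counted. LOVA and NTC overlapped, and both lay far above PTC. The fitted log2 fold change was 4.39 (SE 0.45) in NTC minus PTC and 4.14 (SE 0.45) in LOVA minus PTC, a 21-fold and a 17.7-fold difference. For LOVA minus NTC it was -0.25 (SE 0.36), and 0.11 without LOVA A.

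Of the 7 genes that were tested, 4 (Ftl1, Hmox1, Slc40a1 and Cp) were called higher in NTC than in PTC, where 21.5% of all genes tested were called higher. None was called lower, against 12.9% of all genes; 34.5% were called either way. In LOVA minus PTC 3 (Ftl1, Slc40a1 and Cp) were called higher beside 19.8% of all genes, and none lower beside 10.8% (30.6% either way). These comparisons share the PTC libraries. In LOVA minus NTC edgeR called 0 of the 7 and 0% of all genes; 1 of the 7 (Hmox1) and 561 of all genes had an unadjusted p under 0.05, and DESeq2 and limma-voom also called 0 of the 7. By the libraries alone, 4 of the 7 lay above PTC without overlap in NTC, as did 39% of all genes, and 2 (Ireb2 and Aco1) lay under it, as did 38.5%. For LOVA against PTC 4 lay above (38.4% of all genes) and 1, Aco1, under it (37.9%). For LOVA against NTC 1, Aco1, lay above (12.7%), and 2, Ftl1 and Hmox1, lay under it (13% of all genes). The calls in NTC minus PTC rested on NTC B: without it all 4 were lost (Ftl1 1.58, adjusted p = 0.060; Hmox1 0.90, 0.105; Slc40a1 0.84, 0.142; Cp 3.67, 0.117), and edgeR then called 1 gene higher and 0 lower in all. Hmox1 and Slc40a1 were also lost without PTC A (adjusted p = 0.0629 and 0.121) and without PTC B (0.0663 and 0.0605), and Ftl1 in LOVA minus PTC without PTC A (0.0578).

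**Figure D3:**
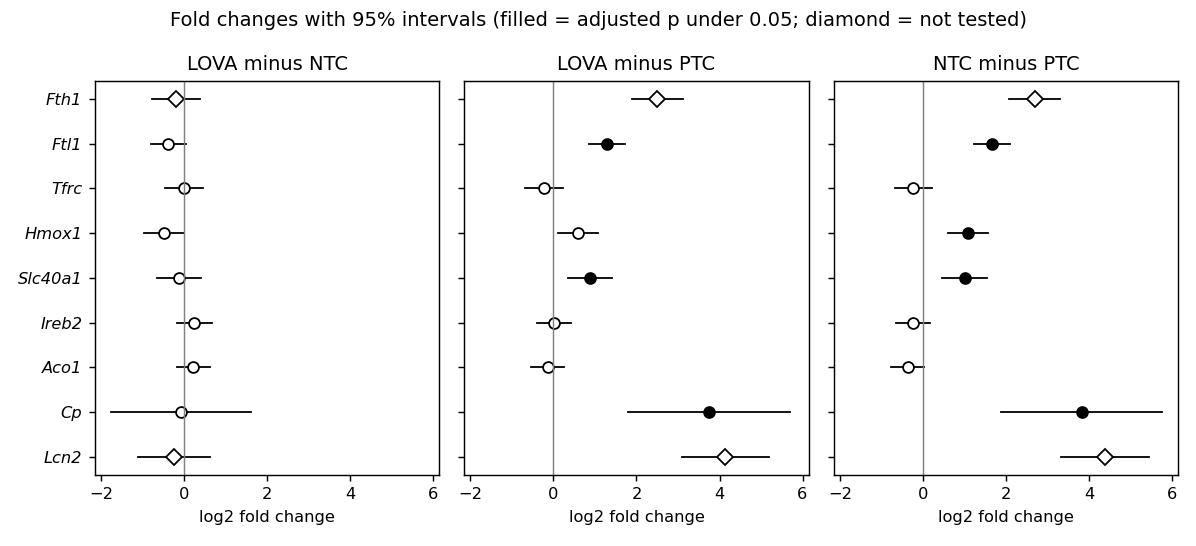
Log2 fold changes of the 9 genes in the 3 contrasts with 95% intervals from the edgeR fit; filled circles passed an adjusted p of 0.05, and diamonds are the genes picked for their change, which were not tested. Against PTC, Ftl1, Slc40a1 and Cp are filled in both panels and Hmox1 in NTC minus PTC alone; in LOVA minus NTC all intervals but that of Hmox1 cross 0.

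Per principal transcript length the order of the levels changed little between groups. In LOVA it ran from Fth1 (3451 CPM per kb) and Ftl1 (3207) through Hmox1 (100.7), Ireb2 (30.4), Tfrc (29), Aco1 (19.9), Lcn2 (11.9) and Slc40a1 (10.6) to Cp (8.83). In NTC the ends were Ftl1 (4168 CPM per kb) and Cp (9.27), and in PTC Ftl1 (1314) and Cp (0.628). Fth1 and Ftl1 overlapped in LOVA and in NTC but not in PTC, where Fth1 averaged 609 CPM per kb. Tfrc and Ireb2 overlapped in LOVA and PTC, and Lcn2, Slc40a1 and Cp each overlapped their neighbour in LOVA and NTC. In PTC, Lcn2 (0.658) and Cp overlapped at the bottom, both under Slc40a1 (5.75).

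The feeder share of counts was higher in LOVA and NTC than in PTC, as were 6 of the 9 genes by CPM. Counted per 1000 feeder-marker counts, Fth1 had 165 and 109 counts in LOVA, 179 and 116 in NTC, and 269 and 102 in PTC. On this scale Fth1 overlapped between all 3 groups. Ftl1 had 162 and 104 in LOVA, 200 and 127 in NTC, and 764 and 189 in PTC, with PTC A above all others and PTC B within the range of NTC. Hmox1 and Slc40a1 turned round without overlap. Hmox1 had 8.32 and 5.26 in LOVA, 10.3 and 7.34 in NTC, and 66.0 and 14.9 in PTC. Slc40a1 had 1.93 and 1.16 in LOVA, 1.82 and 1.28 in NTC, and 10.6 and 3.14 in PTC. Tfrc, Ireb2 and Aco1 also lay higher in both PTC libraries than in all others, with Tfrc at 115 and 21.1 in PTC and at most 8.88 elsewhere. So of the 6 genes that lay above PTC by CPM, Cp and Lcn2 alone did so per feeder-marker count. Cp had 1.74 and 1.25 in LOVA, 1.75 and 1.23 in NTC, and 0.299 and 0.684 in PTC, still without overlap. Lcn2 had 0.469 and 0.411 in LOVA, 0.592 and 0.428 in NTC, and 0.337 and 0.0958 in PTC, also without overlap. How many of all genes separate on this scale was not counted. The feeder share itself was 0.178% in PTC A and 0.690% in PTC B. The PTC A values of Lcn2 and Cp rest on 9 and 8 counts, and Lcn2 was chosen for its change. Which cells made these transcripts was not tested.

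**Figure D4:**
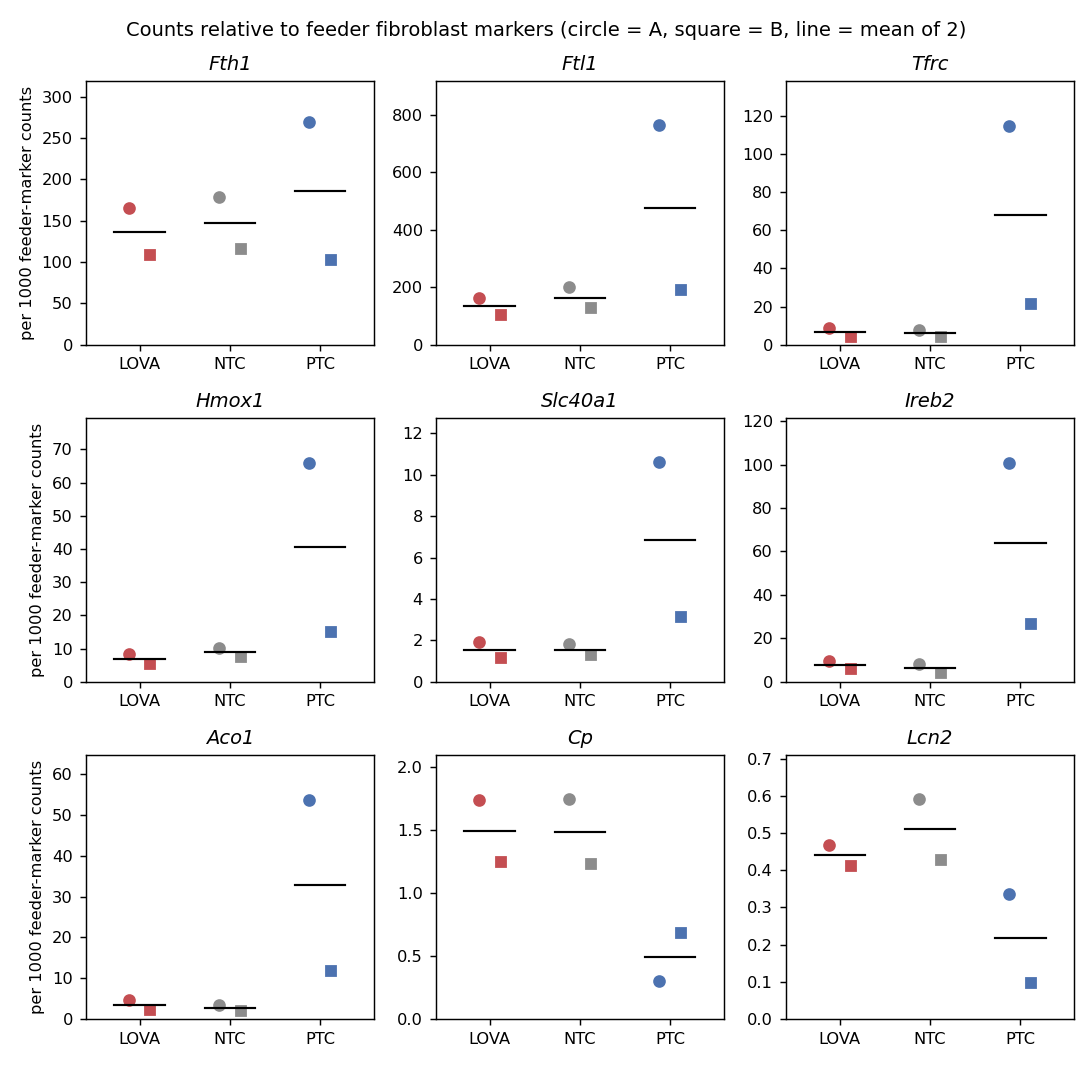
Counts of the 9 genes per 1000 counts of the 20 feeder fibroblast markers in each library (linear axes from 0); circles are A libraries, squares B libraries and lines the mean of 2. Cp and Lcn2 lie lower in both PTC libraries than in all others, Fth1 overlaps between all groups and Ftl1 between PTC and NTC, and Tfrc, Hmox1, Slc40a1, Ireb2 and Aco1 lie higher in both PTC libraries than in all others.

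With libraries scaled to the germ cell genes, the median of all genes moved to 1.04 in NTC minus PTC and 1.03 in LOVA minus PTC. Tfrc, Ireb2 and Aco1 then had positive log2 fold changes in NTC minus PTC (0.84, 0.81 and 0.71), none of them called, and relative to the median of all genes they lay at -0.20, -0.23 and -0.33. Ftl1, Hmox1, Slc40a1 and Cp remained called higher with that scaling, but so were 5001 of the 16121 genes, against 3472 with TMM. Those calls are against 0 and not against the shifted median. Relative to the median these members lay at 1.71, 1.14, 1.07 and 3.92, which was not tested. Fth1 and Lcn2 lay at 2.75 and 4.45 relative to it.

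A wider set of 196 genes in 14 lists around iron, heme, copper, oxidative defence, lipocalins and the acute phase was counted beside these 9, of which 160 were tested. The lists were written with earlier results of these data known, so their shares are a description with no test. In NTC minus PTC 67 rose and 10 fell, 41.9% and 6.25% of those tested beside 21.5% and 12.9% of all genes, with a median log2 fold change of 0.53 against -0.02 over all genes tested. Between LOVA and PTC 56 rose and 10 fell, 35% and 6.25% beside 19.8% and 10.8% of all genes (median 0.51 against 0.00). For LOVA minus NTC none was called by edgeR (median -0.08 against 0.01), 5 genes had an unadjusted p under 0.05, and limma-voom called 0. DESeq2 called 1 lower, edgeR with the column letter as a block 2, and edgeR with no filter beyond 1 count 6. The lower calls depended on the scale: with libraries scaled to the germ cell genes 1 of the 160 was called lower in NTC minus PTC and 0 in LOVA minus PTC. In the usual scaling 10 of 20 pan-germ-cell genes fell in NTC minus PTC (median -1.03) and 8 in LOVA minus PTC (median -1.07) beside those calls, and the part of that fall was not tested. The feeder share was higher in LOVA and NTC than in PTC beside all of these lists, and its part was not tested. Without NTC B 0 of the 160 were called in NTC minus PTC, without PTC A 32 rose and without NTC A 44, and in LOVA minus PTC 17 rose without LOVA B or without PTC A.

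Of the 14 uptake and reduction genes, 5 rose and 1 fell in NTC minus PTC (median 0.57). These were 35.7% and 7.14%, beside 21.5% and 12.9% of all genes. Of the STEAP family genes 3 rose, Steap4 by 3.26 (SE 0.82, adjusted p = 0.0283), Steap3 by 3.09 (SE 0.47, adjusted p = 0.0100) and Steap2 by 2.37 (SE 0.52). Steap3 is the reductase of the transferrin cycle in red cell precursors. Steap1 was at 0.41 (SE 0.27, adjusted p = 0.275). The zinc and iron transporter Slc39a8 rose by 3.26 (SE 0.53) and averaged 6.71 ± 3.15 CPM in LOVA, 9.45 ± 2.77 in NTC and 0.963 ± 0.386 in PTC (SD, n = 2 each). The gene that fell, named after its value was seen, was Trf, transferrin itself, which averaged 12.2 CPM in LOVA, 10.6 in NTC and 51.7 in PTC (-2.28, SE 0.37, adjusted p = 0.0106, in NTC minus PTC). In LOVA minus PTC 6 rose and 1 fell, again Trf (-2.07, SE 0.37, adjusted p = 0.0171). The shares there were 42.9% and 7.14%, beside 19.8% and 10.8% of all genes. Scaled to the germ cell genes, Trf was at -1.20 in both comparisons, with adjusted p = 0.05 in NTC minus PTC, just inside the threshold, and 0.0536 in LOVA minus PTC. Between LOVA and NTC the most abundant members, Slc39a14 and Steap4, were at -0.50 (SE 0.34) and -0.04 (SE 0.74).

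Of the 7 genes of ferritin loading and turnover, 1 rose, Scara5, a receptor for extracellular ferritin (1.84, SE 0.46, adjusted p = 0.0245, in NTC minus PTC, and 1.80 in LOVA minus PTC). That share, 14.3% in each comparison, lay under the 21.5% and 19.8% of all genes. The most abundant, the iron chaperone Pcbp2 and the ferritin autophagy receptor Ncoa4, were at -0.22 (SE 0.15) and -0.27 (SE 0.15) in NTC minus PTC and at 0.04 and 0.12 in LOVA minus NTC, not called. Of 4 further genes listed under iron export and ferroxidases, 2 rose in each comparison with PTC. That share, 50% in each, stood beside 21.5% and 19.8% of all genes. They were Heph, a membrane-bound ferroxidase related to ceruloplasmin, and App, a membrane protein with a reported part in ferroportin stability. In NTC minus PTC Heph rose by 3.05 (SE 0.58) and App by 2.68 (SE 0.61). Hmgb1, an abundant chromatin protein on that list, and App were at -0.07 and -0.01 in LOVA minus NTC. Of the 8 genes that control the iron regulatory proteins, 0 were called in any contrast by edgeR, and 0 had an unadjusted p under 0.05. The most abundant were Glrx3 (0.31, SE 0.14) and Cul1 (-0.07, SE 0.16) in NTC minus PTC. Among all genes 34.5% were called either way in NTC minus PTC, 30.6% in LOVA minus PTC and 0% in LOVA minus NTC. Of the 9 tested genes of the hepcidin axis, Hfe (1.70, SE 0.36, adjusted p = 0.0172) and the BMP receptor Acvr1 (1.59, SE 0.41, adjusted p = 0.0280) rose in NTC minus PTC, and Acvr1 alone in LOVA minus PTC. These shares of the axis, 22.2% and 11.1%, lay near and under the 21.5% and 19.8% of all genes. Bmpr1a and Neo1, the most abundant there, were at 0.23 (SE 0.28) and -0.05 (SE 0.17) in LOVA minus NTC.

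Of 20 genes of mitochondrial iron and iron-sulfur clusters 5 rose and 1 fell in NTC minus PTC (median -0.24), and the 25% that rose is close to the 21.5% of all genes. Those that rose included Bola3 (2.24, SE 0.40) and the mitochondrial iron importer mitoferrin 1, Slc25a37 (1.72, SE 0.26), the scaffold Iscu (1.01) and Isca1 (0.96). Between LOVA and PTC 5 rose and 2 fell, among them Iba57, a factor of iron-sulfur cluster assembly (-1.13, SE 0.32, adjusted p = 0.0376; -0.17 and not called when scaled to the germ cell genes). In LOVA minus PTC the shares that rose and fell were 25% and 10%, beside 19.8% and 10.8% of all genes. Hspa9, the most abundant, was at -0.07 in LOVA minus NTC. Of 10 heme synthesis genes 3 rose in NTC minus PTC, Slc25a38, Fech, the enzyme that inserts iron into heme (0.92, SE 0.25, adjusted p = 0.0301), and Tmem14c, and of these Fech alone in LOVA minus PTC. These shares, 30% and 10%, stood beside 21.5% and 19.8% of all genes. Alad, an early enzyme of the pathway, was at -0.07 (SE 0.29) in LOVA minus NTC.

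Of 12 genes of heme breakdown and transport 8 rose in NTC minus PTC and 0 fell (median 1.71), while in LOVA minus PTC 7 rose and 1 fell. In NTC minus PTC 66.7% rose and 0% fell, beside 21.5% and 12.9% of all genes. In LOVA minus PTC 58.3% rose and 8.33% fell, beside 19.8% and 10.8%. Haptoglobin, Hp, which binds free hemoglobin, was scarce throughout, with 3.84 ± 0.205 CPM in LOVA, 6.57 ± 0.836 in NTC and 0.434 ± 0.170 in PTC (SD, n = 2 each), and rose by 3.86 (SE 0.45, adjusted p = 0.00859) in NTC minus PTC. The heme transporter Slc48a1 averaged 89.4 CPM in LOVA, 112 in NTC and 15.4 in PTC (2.86, SE 0.32, adjusted p = 0.00855, in NTC minus PTC). Hebp1 (2.49) and biliverdin reductase B, Blvrb (2.38, SE 0.38), rose too. The endocytic receptor Lrp1, which takes up heme bound to hemopexin among many ligands, rose by 2.12 (SE 0.52) in LOVA minus PTC. The gene that fell in LOVA minus PTC was Hmox2, the constitutive heme oxygenase (-0.83, SE 0.25, adjusted p = 0.0435), named after its value was seen. Hmox2 was at -0.62 (adjusted p = 0.0892) in NTC minus PTC, and when scaled to the germ cell genes it was at 0.11 in LOVA minus PTC, not called. Between LOVA and NTC, Lrp1 and Hmox2 were at 0.08 and -0.21.

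Targets of NRF2, the transcription factor of the oxidative stress response to which Fth1, Ftl1 and Hmox1 also answer, moved both ways. Of 19, 8 rose and 3 fell in NTC minus PTC (median 0.54), and 7 rose and 3 fell in LOVA minus PTC. In NTC minus PTC these were 42.1% and 15.8%, beside 21.5% and 12.9% of all genes. In LOVA minus PTC they were 36.8% and 15.8%, beside 19.8% and 10.8%. The glutathione transferase Gstm1 (2.52, SE 0.35), Osgin1 (2.14, SE 0.68), sulfiredoxin, Srxn1 (1.96, SE 0.32), and thioredoxin, Txn1 (1.42, SE 0.19), rose in NTC minus PTC. The genes that fell, named after their values were seen, were Gsr (-1.01, adjusted p = 0.0417), Gclc (-0.74, adjusted p = 0.0287) and Gclm (-0.58). Scaled to the germ cell genes, Gsr, Gclc and Gclm were at 0.03, 0.31 and 0.47 in NTC minus PTC, none of them called. Prdx1 and Sqstm1, the most abundant, were at -0.32 and -0.01 in LOVA minus NTC.

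Among 14 genes of ferroptosis, the iron-dependent form of cell death by lipid peroxidation, 4 rose and 2 fell in NTC minus PTC (median -0.04), and 3 rose and 2 fell in LOVA minus PTC. These shares, 28.6% and 14.3%, and 21.4% and 14.3%, lay near those of all genes (21.5% and 12.9%, and 19.8% and 10.8%). Sat1, a polyamine enzyme, rose by 2.41 (SE 0.24, adjusted p = 0.00795), Chac1, which degrades glutathione, by 2.22, and Ptgs2, the inducible cyclooxygenase, by 2.21. The transcription factor Tfap2c fell by 1.81 (SE 0.30, adjusted p = 0.0109) in NTC minus PTC. Slc3a2, the heavy chain of the cystine transporter, fell too (-0.58, adjusted p = 0.0353) and was named after its value was seen. With germ cell scaling neither was called in NTC minus PTC, Tfap2c at -0.71 and Slc3a2 at 0.47. Gpx4, the peroxidase that repairs oxidised lipids, averaged 194 ± 4.15 CPM in LOVA, 231 ± 12.6 in NTC and 106 ± 6.06 in PTC (SD, n = 2 each), and rose by 1.12 (SE 0.15, adjusted p = 0.00892) in NTC minus PTC and by 0.87 (SE 0.15, adjusted p = 0.0171) in LOVA minus PTC. Acsl4, which makes the lipids that are oxidised, rose by 0.96 (SE 0.23, adjusted p = 0.0270) in LOVA minus PTC. Slc3a2 and Gpx4 were at -0.05 and -0.25 in LOVA minus NTC.

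Acute-phase genes and relatives of Lcn2 had the highest medians of the 14 lists in NTC minus PTC. Of 10 tested lipocalins and related lipid- and retinoid-binding proteins 6 rose in NTC minus PTC (median 2.16) and 5 in LOVA minus PTC (median 0.96). These were 60% and 50%, beside 21.5% and 19.8% of all genes. Apod, a lipocalin of fibroblasts and glia among other cells, averaged 186 CPM in LOVA, 370 in NTC and 34.7 in PTC (3.41, SE 0.73, adjusted p = 0.0200, in NTC minus PTC). Fabp4 (3.86, SE 0.50) and Fabp5 (2.89, SE 0.36) rose too. All 10 had negative log2 fold changes in LOVA minus NTC (median -0.53), none called by edgeR, with Apod at -0.99 (SE 0.67) and Crabp1 at -0.21 (SE 0.17); 2 of the 10 had an unadjusted p under 0.05. Of 17 acute-phase and NF-kB genes 14 rose in NTC minus PTC (median 2.58) and 12 in LOVA minus PTC (median 2.00). Here the shares were 82.4% and 70.6%, beside 21.5% and 19.8% of all genes. Saa3 averaged 47.0 CPM in LOVA, 123 in NTC and 4.66 in PTC. The chemokine Cxcl5 was at 4.34 and Cxcl1 at 3.25 in NTC minus PTC, and Il6 at 3.23, all called higher. Cebpd, a transcription factor of the acute phase, rose by 2.34 and the NF-kB inhibitor Nfkbia by 2.22 in LOVA minus PTC. In LOVA minus NTC 13 of the 17 had negative log2 fold changes and 4 positive ones (median -0.24). None was called by edgeR, and 2 had an unadjusted p under 0.05. Stat3 and Socs3, the most abundant of the 17, were at 0.12 and -0.19 in LOVA minus NTC. The macrophage share was highest in NTC beside both lists, and its part was not tested.

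The metallothioneins Mt2 (2.30, SE 0.32, adjusted p = 0.00903) and Mt1 (2.13, SE 0.29, adjusted p = 0.00892) rose in NTC minus PTC, while the zinc exporter Slc30a1 (-0.71) and the metal-sensing factor Mtf1 (-0.68, adjusted p = 0.0483) fell, so that of 5 tested genes 2 rose and 2 fell. That was 40% each way, beside 21.5% higher and 12.9% lower among all genes. Scaled to the germ cell genes, Slc30a1 and Mtf1 were at 0.37 and 0.41, not called. In LOVA minus PTC Mt2 and Mt1 rose and none fell, and in LOVA minus NTC they were at -0.12 and -0.09. The LOVA minus PTC shares were 40% and 0%, beside 19.8% and 10.8% of all genes. Of 11 copper genes 7 rose and 1 fell in NTC minus PTC, and 4 rose and 1 fell in LOVA minus PTC. In NTC minus PTC these were 63.6% and 9.09%, beside 21.5% and 12.9% of all genes. In LOVA minus PTC they were 36.4% and 9.09%, beside 19.8% and 10.8%. The copper enzymes Lox (3.56, SE 0.85) and Loxl2 (2.48, SE 0.70), which cross-link collagen, led beside the transporter Slc31a2 (1.91, SE 0.31) and the chaperone Atox1 (1.67, SE 0.20). The gene that fell, named after its value was seen, was the copper pump Atp7b, which also loads copper into ceruloplasmin in the liver (-1.35, SE 0.34, adjusted p = 0.0247; -0.32 and not called with germ cell scaling). Lox and Loxl2 were at -0.15 (SE 0.77) and 0.00 (SE 0.66) in LOVA minus NTC.

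**Figure D5:**
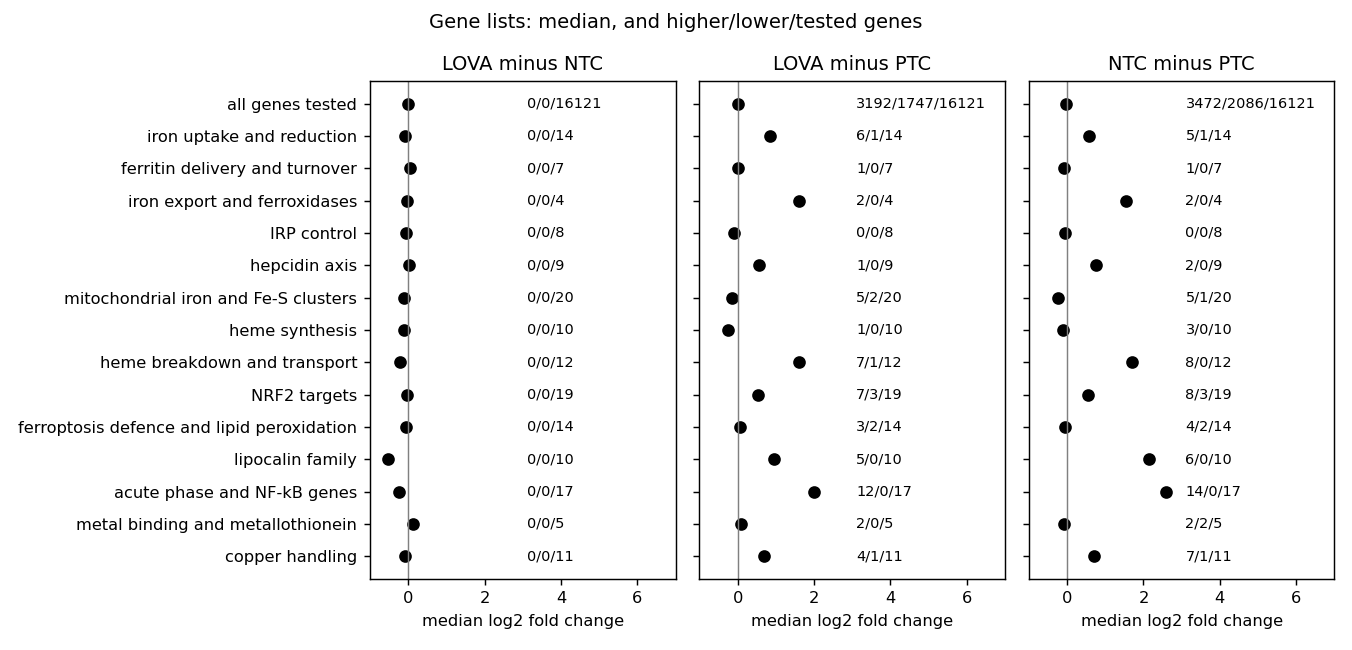
Median log2 fold change of each gene list in the 3 contrasts (points), with the numbers of genes called higher, called lower and tested printed to the right. Acute-phase and NF-kB genes, the lipocalin family and heme breakdown and transport lie farthest right in NTC minus PTC (2.58, 2.16 and 1.71), and no list has a called gene in LOVA minus NTC.

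Genes whose levels ran most closely beside 4 of the 9 over the 6 libraries were found among 10083 genes with a mean of at least 10 CPM, by the root mean square difference of centred log2 CPM. For Fth1 they were Cyb5a, which makes the heme protein cytochrome b5 (0.05, with 108 CPM in LOVA, 125 in NTC and 18.0 in PTC), Commd3 (0.06), Ginm1 (0.06) and Rtl8b (0.09). For Lcn2 they included Adm (0.20), Tmem176a (0.21) and Id2 (0.24). Tfrc ran closest to Pkp4 (0.05), Fsd1l (0.06), Ccp110 (0.06) and Cd151 (0.07), and Hmox1 to Efhd2 (0.09), H2-D1 (0.09), Pla2g15 (0.09) and Pxylp1 (0.09). With 6 libraries that share groups, letters and feeder shares, these are descriptions without a test.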

How the data were processed

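The authors deposited 1 table of unnormalized whole-number counts, keyed by Ensembl identifier, per the file header. The submitters' processing notes name Trimmomatic, Bowtie2, RSEM, DESeq2 and mm10, without versions or roles; if RSEM made the counts, they were rounded before deposit. Libraries were strand-specific and paired-end, per the labels' protocols. Columns carry a group and a letter, and nothing pairs the letters with the numbered samples.

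Symbols, positions and transcripts came from GENCODE M21 (GRCm38), which left 21 identifiers without a symbol. Of 196 listed genes, 160 were tested. Genes kept by filterByExpr (16121) were scaled by TMM. A robust quasi-likelihood model in edgeR 4.0.16 (R 4.3.3) took all 6 libraries, with a coefficient for each group, which left 3 residual degrees of freedom; the common biological coefficient of variation was 0.26. Benjamini-Hochberg adjustment ran over all genes tested, with calls at 0.05. The fit was tested on simulated data. Lengths are those of the principal protein-coding transcript with a RefSeq match. Limits from a count of 0 cover counting error only.

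The genes and lists were chosen with earlier results of these data known. Named list genes are up to 4 called members with the largest change per list and contrast, or the 2 most abundant where none was called; in repeats of a list not all are printed again, and some genes that the rule names are not reported here. Alternatives were DESeq2 1.42.0, limma 3.58.1 (voom), other scalings and filters, a letter block, the compared groups alone, each library left out and, added after seeing the data, union exon lengths.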

Additional observations from a re-analysis of the deposited data

How the results depend on the processing

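For the 9 genes the fold changes kept their direction with DESeq2, limma-voom, DESeq2's size factors and a filter of 1 CPM in 2 libraries. The 7 tested genes also kept their side of the threshold there. The cause of the changes below was not tested. When germ cell genes set the scale, log2 fold changes turned positive for Tfrc (0.84 in NTC minus PTC, 0.79 in LOVA minus PTC), Ireb2 (0.81 in NTC minus PTC) and Aco1 (0.71 and 0.89). Ireb2 in LOVA minus PTC was -0.031 with no filter beyond 1 count and, with each library left out in turn, ran between -0.14 and 0.15. Tfrc then ran between -0.44 and 0.015 in NTC minus PTC, between -0.44 and 0.011 in LOVA minus PTC, with the positive values without PTC A, and between -0.060 and 0.050 in LOVA minus NTC. For LOVA minus NTC the ranges were -0.42 to 0.0057 for Fth1, -0.31 to 0.041 for Slc40a1, -0.38 to 0.18 for Cp and -0.73 to 0.11 for Lcn2; values were positive without LOVA A for all 4 and also without NTC B for Slc40a1 and Cp.

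Germ cell scaling left 37 genes lower in NTC minus PTC and 28 in LOVA minus PTC, of them 1 and 0 in the iron lists. Column letters deviated together (correlations 0.247 to 0.366) but match no labelled replicate. With the letter as a replicate block, 3632 and 3466 genes were lower in these contrasts, 19 and 25 in the lists, and in LOVA minus NTC 18 genes were higher and 72 lower, 2 in the lists; of the tested members the block changed the call of Hmox1 in LOVA minus PTC alone. In LOVA minus NTC DESeq2 called 25 higher and 95 lower (1 in the lists), limma-voom 4 lower, and no filter 44 higher and 147 lower (6 in the lists). In LOVA minus PTC no filter called 2703 lower, and fitting those groups alone 881, of them 2 in the lists. Leaving out a library gave 1 to 3635 genes higher and 0 to 3091 lower in NTC minus PTC, 0 higher and 0 to 2 lower in LOVA minus NTC, and 628 to 3580 higher and 57 to 3174 lower in LOVA minus PTC. Of the 7 tested members 0 to 3 were then higher in NTC minus PTC and 1 to 3 in LOVA minus PTC. In the lists 0 to 61 were higher and 0 to 17 lower in NTC minus PTC, and 17 to 58 higher and 1 to 18 lower in LOVA minus PTC. A lone library left in a group was assumed to vary like the other groups.

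In LOVA, NTC and PTC the mean ratio of Ftl1 to Fth1 was 0.97, 1.10 and 2.35 in raw counts and 2.51, 2.86 and 6.08 per union exon length. That of Tfrc to Fth1 was 0.0455, 0.0391 and 0.316 in raw counts and 0.0255, 0.0219 and 0.177 per union length, and that of Aco1 to Ireb2 0.440, 0.446 and 0.486, and 0.929, 0.941 and 1.03. Depth limits the PTC values of Lcn2 and Cp most, where as few as 9 and 8 reads were counted.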

Other observations

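The X-linked Fthl17 genes, relatives of the ferritin heavy chain expressed in germ cells and early embryos of the mouse, were looked at after their values were seen. Of 6 in the table, Fthl17a had 0 counts in every library and the other 5 were tested. Fthl17c, the most abundant, averaged 15.1 ± 10.8 CPM in LOVA, 23.0 ± 7.26 in NTC and 34.0 ± 5.01 in PTC (SD, n = 2 each). All 5 had negative log2 fold changes against PTC, between -0.57 and -0.28 in NTC and between -1.22 and -0.63 in LOVA, the opposite sign to Fth1. By edgeR, Fthl17d alone passed, in LOVA minus PTC (-1.22, SE 0.35, adjusted p = 0.0401). Pan-germ-cell genes took 0.332% and 0.172% of counts in LOVA (A, then B), 0.281% and 0.182% in NTC, and 0.504% and 0.508% in PTC beside them, and the part of that share was not tested. The Fthl17 copies are near-identical, so the counting could have split reads between them.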
